A study of Mus musculus with 8 samples.

Results

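Lysosomal enzymes and lysosomal membrane proteins were examined in the transcriptomes of muscle satellite cells (SCs), the stem cells that repair skeletal muscle, from exercise mice and control mice. The 35 genes were taken by symbol from a list of known lysosomal genes, and all 35 were among the 52636 genes of the deposited table. Of these, 32 were listed for their function, and 3 (Dirc2, Scpep1 and Slc37a3) were chosen by their measured FPKM, which rose strongly with exercise in these same libraries, so their rise is a description and was not tested. Results are given with and without the 3.

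Lysosomes are acidic organelles in which proteins, glycans and lipids delivered by endocytosis and autophagy are broken down. Cathepsins and other proteases cut proteins, glycosidases remove sugars, and lipid hydrolases work with small helper proteins. Heavily glycosylated membrane proteins line the organelle, and transporters and channels move the products out. In quiescent SCs, autophagy that ends in lysosomes is known to maintain protein and organelle quality.

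All mice were male C57B/6J mice, 10 weeks old when they were divided into groups, and no genotype or agent separated the groups. Control mice were sedentary, and exercise mice ran on a treadmill for 4 weeks, on 4 days per week, at 12 m/min in bouts of 30 min. Each library was made from about 800 cells sorted by flow cytometry from muscle as CD45-, CD11b-, CD31-, Sca1-, CD34+ and α7-integrin+ cells, and polyA RNA was amplified by a single-cell library kit. There were 4 control and 4 exercise libraries. The study counts its sequenced samples as mice, but the labels do not tie each library to a mouse of its own, so p-values measure the spread between these libraries, which may be technical.

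Values are FPKM, reads divided by gene length, here scaled by a size factor of each library. Control libraries held 2339966 to 3013354 reads on genes and exercise libraries 1011737 to 1200221, and 5169 to 7306 genes had reads in control against 2348 to 3289 in exercise. In a gene of 1 kb, 1 read was worth 0.251 to 0.436 FPKM in control, 0.598, 0.627 and 0.902 FPKM in exercise libraries 1 to 3, and 3.47 FPKM in exercise 4. Transcripts of the mitochondrial genome made up 50.2% of reads in exercise 3 and 68.7% in exercise 4, against 7.56% to 15.3% in 5 other libraries and 2.09% in control 1. Exercise 1 and 2 were nearly alike, since the chi-square of their counts divided by its degrees of freedom was 3.86, more than counting noise gives, and was 82.6 to 711 for the other pairs within a group. Their FPKM for the lysosomal genes differed by factors of 0.822 to 1.37 (exercise 2 over exercise 1) over the 9 genes with at least 20 reads in both. Of 16 SC markers 10 had reads, Sdc4 with 3.25 to 33.8 FPKM in control and 30.0 to 76.1 FPKM in exercise, but Chodl with 3.29 to 16.5 FPKM in control and no read in exercise, and the list summed to 34.3 to 70.8 FPKM in control and 32.6 to 125 FPKM in exercise. The defining markers Pax7, Itga7, Calcr, Cdh15, Hey1 and Notch3 had no read in any library, although α7-integrin, the product of Itga7, was used for the sort. Macrophages are rich in lysosomes, and 17 of 18 macrophage markers had no read in any library, with Cd14 at no more than 1.39 FPKM. Myofibre markers summed to 40052 to 90654 FPKM in control and 19893 to 107924 FPKM in exercise, and fibroblast markers to 3079 to 4588 and 3669 to 10761 FPKM. Members of the fibroblast list went both ways. Clec3b was at 27.7 to 44.1 FPKM in control and 52.5 to 1203 FPKM in exercise, and Lum was also higher in every exercise library. Col1a2 was at 388 to 972 FPKM in control and 20.7 to 157 FPKM in exercise, and Pdgfra and Mfap5 were also lower in every exercise library. Of 12 endothelial markers 5 had reads, and their sum was 0.63, 2994, 1669 and 1076 FPKM in control libraries 1 to 4 and 4.42 to 26.2 FPKM in exercise. Kdr had 0, 2994, 1669 and 1076 FPKM in control and at most 0.53 FPKM in exercise, and Tek went the other way, at no more than 0.093 FPKM in control and 24.0, 25.8, 14.7 and 4.42 FPKM in exercise, while Pecam1 and Cdh5 had no read. The part of these cells in the results below was not tested, and in bulk RNA fewer cells of a type and less RNA per cell cannot be told apart.

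Lysosomal genes were called in both directions, more often lower than higher, as in the whole table. Of the 35 genes, 31 had a read in some library, and Ctsc, Neu1, Npc1 and Mcoln1 had none, which allows a share of up to 9.96e-05% to 0.000297% of the reads per library (3 reads, by counting error only). Reads were present in control alone for 10 genes and in exercise alone for 4, or 10 and 3 without the genes chosen for their rise. Control libraries held more reads, and the share of all genes with reads in 1 group alone is not given here. The filter on low values, a mean over all 8 libraries of at least 1 FPKM, was passed by 20 genes, of which 17 were not chosen for their rise. These 17 were compared between groups with limma on log2(FPKM + 1), with Benjamini-Hochberg adjustment over the 4328 genes of the table that passed the same filter and a threshold of 0.05. Ctsb and Ctso were higher in exercise, Ctsh, Ctsa, Npc2, Grn, Lamp1, Cd63 and Laptm4a were lower, and 8 genes did not pass. Among all genes tested, 8.78% were higher in exercise and 26.8% were lower, so that 2 higher and 7 lower of 17 are to be read against a table that was itself tilted towards lower values. Groups did not overlap, in the higher direction, for 2 of the 17 genes (5 of 20 with the 3) against 7.62% of all genes. In the lower direction they did not overlap for 6 genes, against 24.0% of all genes. Of the 17 genes, 12 had a log2 fold change below 0 and 5 above 0. Its median was -1.26 without the 3 and -0.78 with them, beside -1.42 over all genes tested. With groups of 3 or fewer reads set to the value of 3 reads per library, these medians were -0.84, -0.67 and -0.70. When library values were first forced to 1 distribution by quantile normalization, the median of all genes moved to -0.44 and the calls over all genes turned from 380 higher and 1161 lower to 566 higher and 375 lower. The lysosomal calls were then 2 higher and 3 lower, and those lost were Ctsa, Ctsh, Npc2 and Laptm4a, with log2 fold changes of -1.67, -1.13, -0.78 and -0.24 and adjusted p of 0.130, 0.204, 0.134 and 0.727.

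**Figure D1:**
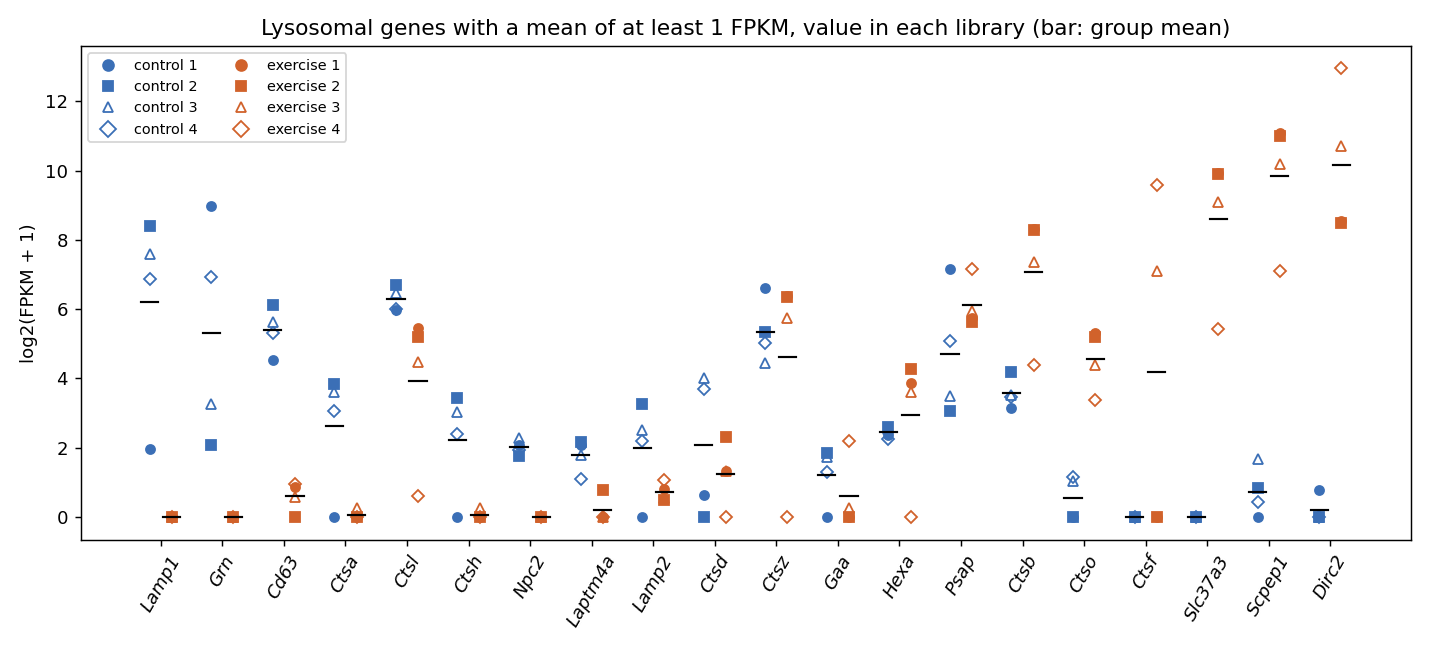
Level of the 20 lysosomal genes that passed the filter in each library, as log2(FPKM + 1), with control in blue, exercise in orange and bars at the group means. Lamp1, Grn and Npc2 lie at 0 in all 4 exercise libraries, and Dirc2, Scpep1 and Slc37a3, which were chosen for their rise, lie far above control in all 4.

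Cysteine cathepsins, the proteases that cut proteins with a cysteine in the active site, moved in both directions. Of 9 genes 6 passed the filter, 2 were higher and 1 was lower, against 8.78% and 26.8% of all genes tested. Ctsb (chr14:63122462-63145923, GRCm38, plus strand), which encodes cathepsin B, held 7.93, 17.1, 10.5 and 9.95 FPKM in control libraries 1 to 4. In exercise libraries 1 to 4 it held 317, 308, 164 and 20.1 FPKM. The groups did not overlap, but exercise 4 lay near the highest control library and far from the other 3 exercise libraries. In RPM, reads scaled by the library's total on genes alone, Ctsb had 47.0 to 119 in control and 30.3 in exercise 4, below every control library, so the separation holds on the FPKM scale only. Ctsb rose by a log2 fold change of 3.51 (SE 0.94, adjusted p = 0.0235 by limma, n = 4 per group), and the group means differed 17.8-fold. The call was kept in the 3 fits without control 1, control 2 or exercise 4, and it was lost in the 5 fits without control 3, control 4, exercise 1, exercise 2 or exercise 3. The adjusted p was 0.117 when libraries were scaled to a constant sum and 0.129 with voom on the recovered reads. Ctsb overlaps Fdft1, an enzyme gene of sterol synthesis on the opposite strand, and no source used here says that counting kept strands apart. Fdft1 had 0.21, 1.78, 9.21 and 5.64 FPKM in control and 117, 124, 57.4 and 4.10 FPKM in exercise. Its order over the exercise libraries was close to that of Ctsb, but few orders are possible where libraries depend on each other, as these do (below). Which reads belong to which gene cannot be told apart.

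Ctso (chr3:81932601-81956725, plus strand), which encodes cathepsin O, was the other gene that rose. It had 0, 0, 1.05 and 1.22 FPKM in control libraries 1 to 4 and 39.1, 35.5, 19.9 and 9.48 FPKM in exercise libraries 1 to 4. Every exercise library lay above every control library. Its log2 fold change was 4.03 (SE 0.71, adjusted p = 0.00408 by limma), and the call held without each library in turn. This is a weak check, because the libraries were not independent of each other (below). With exercise 1 and 2 averaged and control 4 and exercise 3 left out, the adjusted p of Ctso was 0.376 by limma, in a fit that called no gene of the table. The group means differed 45.7-fold, or 74.2-fold without control 4, since the control mean rested on 46 reads in 2 libraries.

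Ctsh (chr9:90054152-90076089, plus strand), which encodes the aminopeptidase cathepsin H, fell. It had 0, 9.80, 7.17 and 4.24 FPKM in control and 0, 0, 0.20 and 0 FPKM in exercise, where the 0.20 FPKM was 1 read. Control 1 lay with the exercise libraries. The log2 fold change was -2.15 (SE 0.75, adjusted p = 0.0497 by limma), and of the 8 fits without 1 library it was called only in that without control 1. In exercise 4, 3 reads of Ctsh were worth 2.31 FPKM, below the level of control libraries 2 to 4.

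Ctsl, Ctsz and Ctsf did not pass the test. Ctsl encodes cathepsin L, an abundant endopeptidase, and was the highest cathepsin of control libraries 2 to 4, at 62.4, 102, 88.4 and 63.3 FPKM in control libraries 1 to 4. It had 43.1, 35.4, 21.4 and 0.53 FPKM in exercise. All exercise libraries lay below all control libraries in FPKM (in RPM they overlapped, at 397 to 764 in control and up to 442 in exercise), with a log2 fold change of -2.35 (SE 1.07) and an adjusted p of 0.104 by limma. Without exercise 4 it was -1.25 with an adjusted p of 0.0681, and with array quality weights it was called, at -1.13 and an adjusted p of 0.0470. Ctsz, for the carboxypeptidase cathepsin Z, had 96.2, 39.4, 21 and 31.3 FPKM in control and 82.6, 80.9, 53.2 and 0 FPKM in exercise. Its log2 fold change was -0.73 (SE 1.39), and turned to 0.81 without exercise 4, the library with no read. With array quality weights Ctsz was called higher, at 1.62 and an adjusted p of 0.0184 by limma. Ctsf, for cathepsin F, had no read in control, none in exercise 1 and 2, and 137 and 770 FPKM in exercise 3 and 4. Its mean in exercise was at least 470-fold above the value of 3 reads per control library, or at least 95.0-fold without exercise 4, but with an SE of 2.0 on a log2 fold change of 4.18 the adjusted p was 0.121. It was called with voom on the recovered reads, at 6.03 and an adjusted p of 0.0334, and its log2 fold change was 2.37 without exercise 4 and 0.24 with array quality weights. The remaining genes of this class were scarce. Ctsk reached 0.86 FPKM at most and Ctss had 1 read in all.

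The other proteases were few. Ctsa (chr2:164832873-164841032, plus strand) encodes cathepsin A, a serine carboxypeptidase that also shields β-galactosidase and neuraminidase from breakdown. It had 0, 13.4, 11.1 and 7.40 FPKM in control and 0, 0, 0.19 and 0 FPKM in exercise. Control 1 again lay with the exercise libraries, and the 0.19 FPKM was 1 read. The log2 fold change was -2.57 (SE 0.85, adjusted p = 0.0423 by limma), called in the fit without control 1 and in none of the other 7 fits without a library. Ctsd, for the aspartic protease cathepsin D, differed as much within control as between groups. It had 0.56, 0, 15.3 and 12.0 FPKM in control and 1.53, 4.00, 1.53 and 0 FPKM in exercise, with a log2 fold change of -0.84 (SE 1.03, adjusted p = 0.508 by limma). Tpp1, an exopeptidase, had 33 reads and Lgmn, the asparaginyl endopeptidase legumain, 3 reads, all in control.

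No glycosidase passed the test. Of 7 genes, 2 passed the filter. Hexa (chr9:59539540-59565109, plus strand), for the α subunit of β-hexosaminidase, had 4.15, 5.07, 4.88 and 3.77 FPKM in control and 13.5, 18.5, 11.3 and 0 FPKM in exercise. The first 3 exercise libraries lay above all control libraries, and exercise 4 had no read, with 3 reads there worth 5.22 FPKM. The log2 fold change was 0.50 (SE 0.96, adjusted p = 0.682 by limma), and without exercise 4 it was 1.48 with an adjusted p of 0.0367. Gaa, the glycosidase that degrades lysosomal glycogen, had 0, 2.59, 2.30 and 1.47 FPKM in control and 0, 0, 0.19 and 3.63 FPKM in exercise, and its groups overlapped. Glb1, Naglu, Gusb and Man2b1 were detected at no more than 1.80 FPKM in any library. Among them Man2b1, a mannosidase, had reads in exercise alone, at 0.97, 1.80, 0.11 and 0 FPKM.

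Genes of lipid breakdown and its helper proteins included 2 falls among the 3 genes that passed the filter, against 26.8% of all genes tested. Grn (chr11:102430315-102437048, plus strand), which encodes progranulin, a secreted precursor that is delivered to lysosomes, had 508, 3.20, 8.70 and 121 FPKM in control and no read in any exercise library. Control 1 and 4 lay far above control 2 and 3. The fitted log2 fold change was -5.32 (SE 1.38, adjusted p = 0.0201 by limma). The control mean was at least 133-fold above the value of 3 reads per exercise library, at least 36.7-fold without control 1 and at least 262-fold without exercise 4. The call was lost without control 4, exercise 1, exercise 2 or exercise 3.

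Npc2 (chr12:84754562-84773152, minus strand), a soluble carrier of cholesterol inside lysosomes, was low and even in control, at 3.21, 2.40, 3.91 and 2.82 FPKM, and had no read in exercise. The log2 fold change was -2.02 (SE 0.44, adjusted p = 0.0102 by limma). The control mean was at least 4.00-fold above the value of 3 reads per exercise library, or at least 7.89-fold without exercise 4, where 3 reads were worth 1.91 FPKM. The call was lost without exercise 3, at an adjusted p of 0.0514. Psap, the precursor of the saposins that present sphingolipids to their hydrolases, did not pass. It had 142, 7.38, 10.4 and 33.1 FPKM in control and 52.3, 48.9, 60.2 and 143 FPKM in exercise, and control 1 was as high as exercise 4 on this scale. In RPM, Psap had 381 in control 1 and 227, 212, 152 and 97.8 in exercise libraries 1 to 4, so that exercise 4 was the lowest of them. The log2 fold change was 1.41 (SE 0.97, adjusted p = 0.240 by limma), and without control 1 it was 2.23 with an adjusted p of 0.0351. Asah1, for acid ceramidase, and Ppt1, a thioesterase, had 3 and 2 reads in all.

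Membrane proteins that passed the filter and were not chosen for their rise were lower in 3 of 4 cases, against 26.8% of all genes tested. Lamp1 (chr8:13159161-13175338, plus strand), which encodes a main glycoprotein of the lysosomal membrane, had 2.93, 338, 191 and 116 FPKM in control and no read in exercise. Control 1 lay far below the other 3 control libraries, the order of the control libraries was that of the endothelial gene Kdr, and the part of such cells was not tested. Among the other genes called lower, Ctsh, Ctsa and Cd63 had this order too, and Npc2, Grn and Laptm4a did not. Control 4 lay near a weighted sum of control 1 and 3 (below), which sets its place between them. In exercise 4, 3 reads of Lamp1 were worth 3.89 FPKM, above the level of control 1. The fitted log2 fold change was -6.21 (SE 1.27, adjusted p = 0.00825 by limma), and the call held without each library in turn, a weak check in libraries that depend on each other. With exercise 1 and 2 averaged and control 4 and exercise 3 left out, the adjusted p was 0.368 by limma. The control mean was at least 103-fold above the value of 3 reads per exercise library, at least 66.0-fold without control 2 and at least 204-fold without exercise 4. Lamp2 (chrX:38401357-38456454, minus strand), its close relative that also serves chaperone-mediated autophagy, had 0, 8.51, 4.75 and 3.57 FPKM in control and 0.75, 0.39, 0.47 and 1.09 FPKM in exercise. It was read in all 4 exercise libraries, where Lamp1 was not, and did not pass the test at a log2 fold change of -1.26 (SE 0.74, adjusted p = 0.176 by limma). Without control 1, which had no read, Lamp2 was called, at -1.93 and an adjusted p of 0.00459.

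Cd63 (chr10:128900989-128912822, plus strand), a tetraspanin of late endosomes, lysosomes and exosomes, had the smallest adjusted p of the lysosomal genes. It had 22.1, 68.1, 48.1 and 38.6 FPKM in control and 0.81, 0, 0.49 and 0.94 FPKM in exercise. The groups were far apart, and the exercise values rested on 8 reads in all against 2213 in control. The log2 fold change was -4.80 (SE 0.65, adjusted p = 0.00124 by limma), the means differed 78.9-fold, and the call held without each library in turn, a weak check in libraries that depend on each other. With exercise 1 and 2 averaged and control 4 and exercise 3 left out, the adjusted p was 0.322 by limma. The order of the control libraries was that of Kdr for Cd63 too, and the part of endothelial cells was not tested. Laptm4a, which encodes a small transmembrane protein of late endosomes and lysosomes, had 3.20, 3.5, 2.46 and 1.13 FPKM in control and 0, 0.71, 0 and 0 FPKM in exercise. Its log2 fold change was -1.59 (SE 0.49, adjusted p = 0.0353 by limma), and it was called without control 1 or without exercise 4 but in none of the other 6 fits. In exercise 4, 3 reads of Laptm4a were worth 5.87 FPKM, above every control value. Scarb2, a membrane receptor that carries β-glucocerebrosidase to lysosomes, had 28 reads, all in control.

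**Figure D2:**
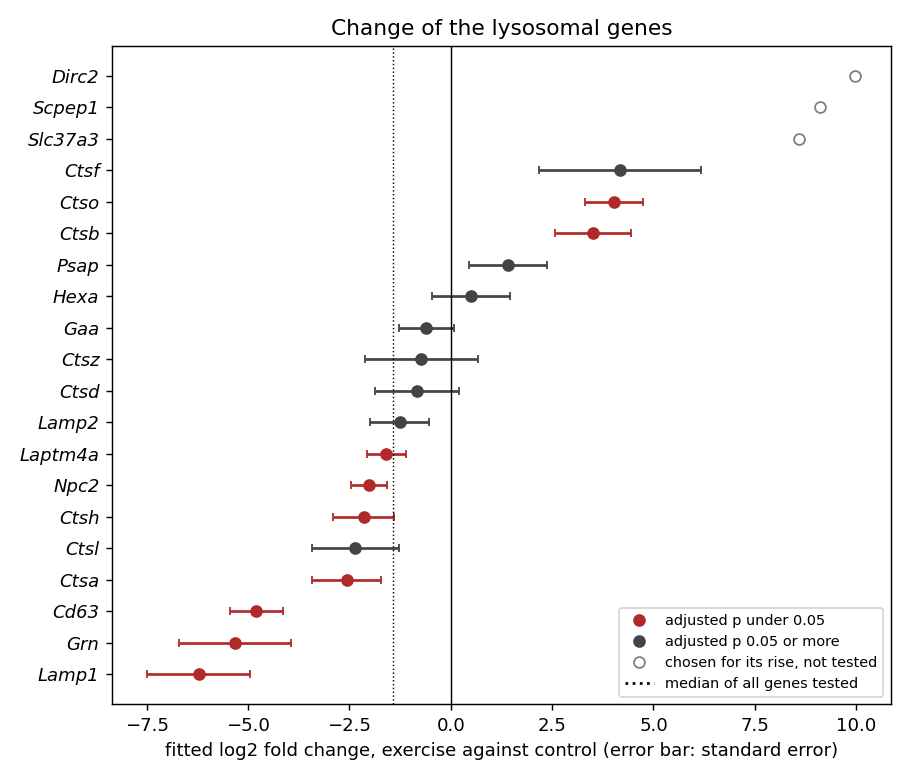
Fitted log2 fold change of each of the 20 lysosomal genes, exercise against control, with the standard error as bar for the 17 genes tested, genes with an adjusted p under 0.05 in red, and the median of all genes tested (-1.42) as a dotted line. Ctsb and Ctso lie above 0, 7 red genes lie below it, and the 3 open circles are the genes chosen for their rise, for which no error is drawn.

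The 3 genes chosen for their rise were the highest of all 35 by mean FPKM, a rank that rests on the same exercise values by which they were chosen. Dirc2 (chr16:35694062-35769356, minus strand), a transporter of the lysosomal membrane, had 0.73, 0, 0 and 0 FPKM in control and 373, 357, 1664 and 7917 FPKM in exercise, with a fitted log2 fold change of 9.97. Scpep1 (chr11:88924020-88955465, minus strand), a serine carboxypeptidase, had 0, 0.78, 2.20 and 0.36 FPKM in control and 2183, 2053, 1160 and 136 FPKM in exercise, with a fitted log2 fold change of 9.11. Slc37a3 (chr6:39334773-39377675, minus strand), a membrane protein of the sugar phosphate transporter family that is found in lysosomes, had no read in control and 974, 956, 544 and 42.3 FPKM in exercise, with a fitted log2 fold change of 8.59. Its exercise mean was at least 3573-fold above the value of 3 reads per control library.

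These 3 genes did not follow each other within exercise. Dirc2 was highest in exercise 4 and lowest in exercise 2, whereas Scpep1 and Slc37a3 were highest in exercise 1 and lowest in exercise 4. The mitochondrial share of the reads was also highest in exercise 3 and 4, and the 12 myofibre markers summed to 19893, 21193, 29589 and 107924 FPKM in exercise libraries 1 to 4. Within that list Actn3 was at 301, 329, 8825 and 48303 FPKM, and Pvalb went the other way, at 3920, 4181, 2252 and 1617 FPKM. The part of these in the levels was not tested. In RPM, which leaves out the size factor and the gene length, Dirc2 had 3181, 3039, 8293 and 10653 RPM in exercise libraries 1 to 4. Scpep1 had 7233, 6790, 2248 and 71.0 RPM, and Slc37a3 had 8323, 8156, 2718 and 57.1 RPM. The order of the libraries was thus the same on both scales, and in exercise 4 Dirc2 alone took 1.07% of the reads. Ctsf shared with Dirc2 its highest value in exercise 4, and Ctsb and Ctso shared with Scpep1 and Slc37a3 their highest value in exercise 1 and their lowest exercise value in exercise 4. Exercise 1 and 2 were nearly alike, and exercise 3 lay near a weighted sum of exercise 1 and 4 (below). Few orders of these libraries are therefore possible, so a shared order does not show that genes vary together.

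**Figure D3:**
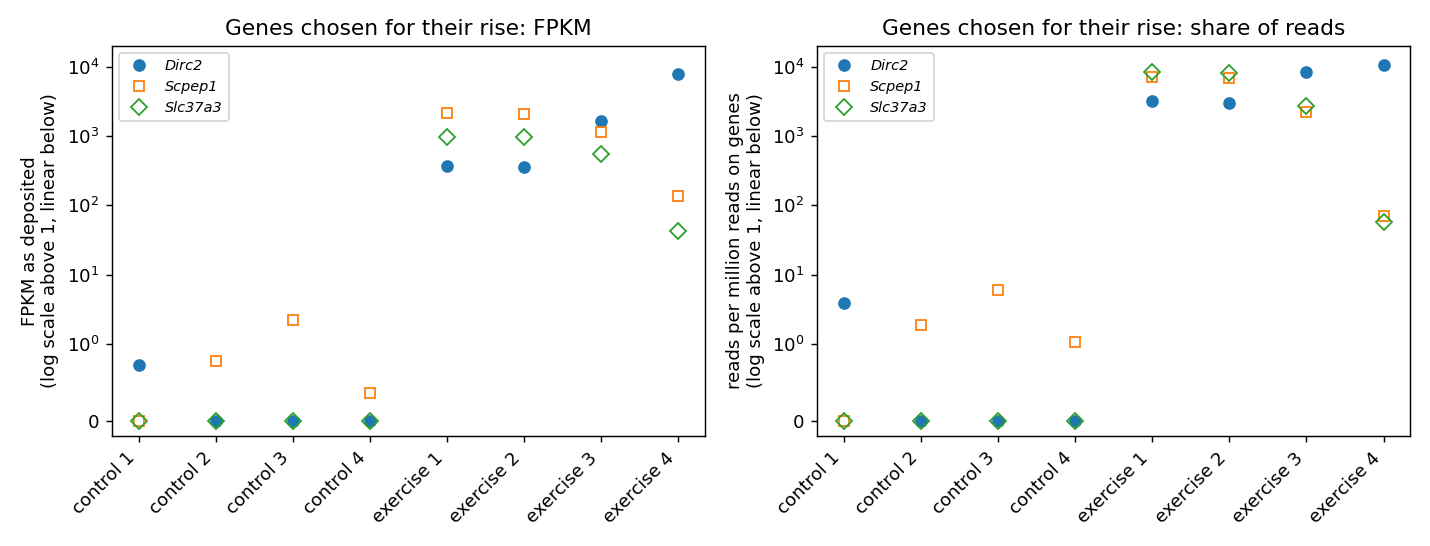
Level of Dirc2, Scpep1 and Slc37a3 in each library, in FPKM on the left and in RPM (reads scaled by the library's total on genes) on the right, on axes that are logarithmic above 1 and linear below. In exercise 4 Dirc2 reaches 7917 FPKM while Scpep1 and Slc37a3 drop to 136 and 42.3 FPKM.

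Libraries were not independent of each other for the lysosomal genes. Genes of the table with at least 50 reads in 1 library and no read in another were taken for this. Across those found in control 1 and not in control 3 (345 genes) control 4 kept a median share of 0.281 of the RPM, and across those found in control 3 and not in control 1 (658 genes) it kept 0.714. For the 12 lysosomal genes with at least 50 reads in any of these 3 libraries, the sum of control 1 and control 3 with these weights gave the level in control 4 within factors of 0.893 to 1.2, with a median of 1.0. Grn, at 508, 8.70 and 121 FPKM in control 1, 3 and 4, and Lamp1, at 2.93, 191 and 116 FPKM, followed it from opposite sides. With the same minimum of 50 reads, exercise 3 kept a median share of 0.299 of the RPM across genes found in exercise 1 and not in exercise 4 (139 genes) and of 0.677 across genes found in exercise 4 and not in exercise 1 (142 genes). The weighted sum gave its level of the 9 lysosomal genes with as many reads within factors of 0.916 to 1.26, with a median of 1.02. Dirc2, Scpep1, Slc37a3, Ctsb, Ctsf and Ctso were among the 9. Genes with fewer reads lay farther from the sums, by factors of up to 2.98 in control 4 and 1.97 in exercise 3 and down to 0 in both, with Ctso (25 reads) at 1.8 in control 4 and Hexa (25 reads) at 1.64 in exercise 3. With exercise 1 and 2 averaged as 1 sample, Ctso, Lamp1, Cd63 and Npc2 were called by limma. Over all genes the calls in that fit were 178 higher and 418 lower, in place of 380 higher and 1161 lower. With control 4 and exercise 3 also left out, leaving 3 libraries against 2, no lysosomal gene and no other gene was called, with an unadjusted p under 0.05 for 4 of the lysosomal genes and for 469 of all genes.

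**Figure D4:**
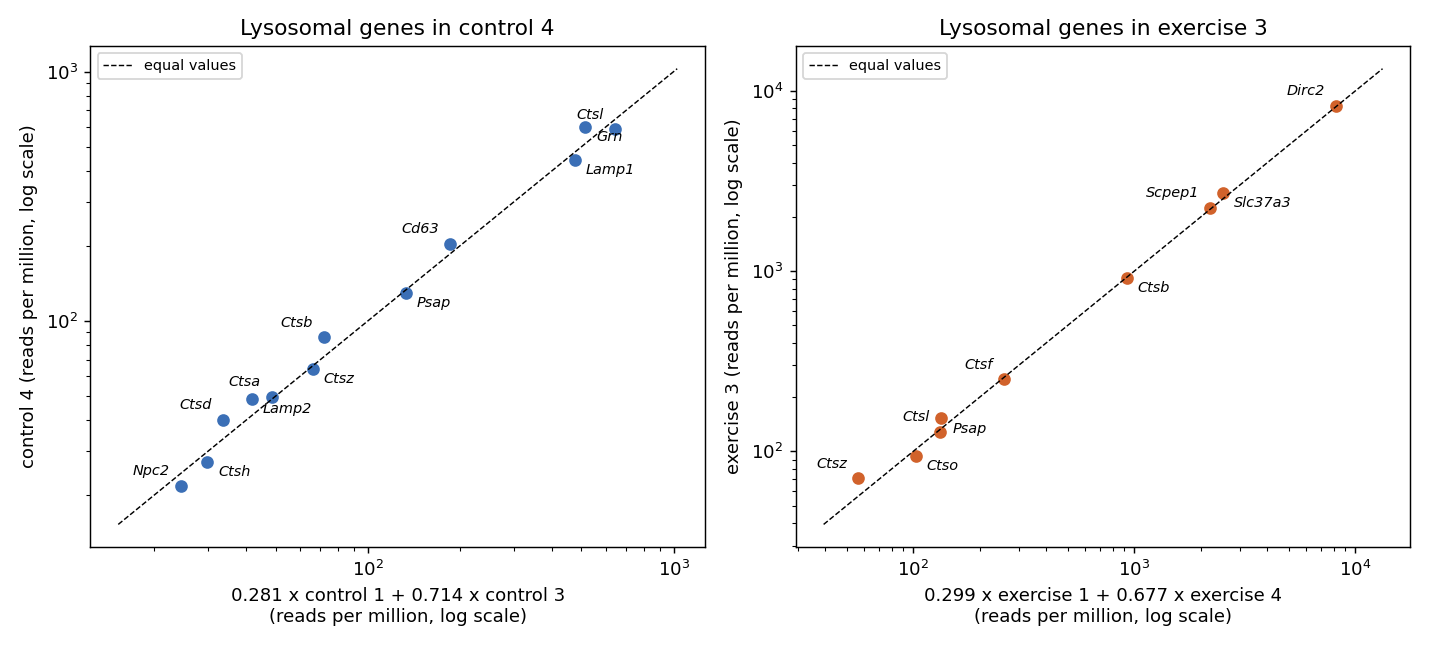
RPM of lysosomal genes with at least 50 reads in any of the 3 libraries, in control 4 against a weighted sum of control 1 and control 3, and in exercise 3 against a weighted sum of exercise 1 and exercise 4, both on log axes with a dashed line of equal values. The 12 genes on the left lie within factors of 0.893 to 1.2 of the line, and the 9 on the right within 0.916 to 1.26.

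Many lysosomal genes carry an E-box in the promoter, the letters CACGTG, which is the core of the CLEAR element bound by the MiT transcription factors TFEB and TFE3. RefSeq promoter windows, from 250 bases before to 50 bases after a gene's start on GRCm38.p6, were found for 31 of the 35 genes, with Dirc2 listed as Slc49a4. CACGTG, which reads the same on both strands, was present in 12 of the 31 genes (38.7%), against 8.09% of the 27025 genes with a window. The longer form TCACGTGA, which contains it, was present in 4 of the 31 (12.9%), against 1.12%. The stretches below show the longer form in these 4 genes and the 4 copies of CACGTG before the start of Lamp1, with the motif in capitals, because their genes differ in what was measured. The RefSeq starts used for Ctsa, Ctsd and Mcoln1 lie inside these genes as the table places them, downstream of the table's starts. The stretches printed for Ctsa, Ctsd and Mcoln1 thus also lie inside the genes so placed.
Ctsa, chr2:164833749-164833778, plus strand: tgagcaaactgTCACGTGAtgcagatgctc
Ctsd, chr7:142387908-142387937, minus strand: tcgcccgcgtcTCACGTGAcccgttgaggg
Mcoln1, chr8:3500462-3500491, plus strand: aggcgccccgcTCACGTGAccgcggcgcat
Slc37a3, chr6:39377703-39377732, minus strand: tgtccccgaggTCACGTGAgcgtccggaag
Lamp1, chr8:13159094-13159157, plus strand: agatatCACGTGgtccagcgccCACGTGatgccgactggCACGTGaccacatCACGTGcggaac
Ctsa and Lamp1 were lower in exercise, Ctsd did not pass the test, Mcoln1, a calcium channel of the lysosomal membrane, had no read, and Slc37a3 was chosen for its rise. Genes with and without these letters were thus found among those that were lower and those that were not called, and a match is a description of the sequence. Ctsb and Ctsh had no window, and Ctso, Cd63, Grn and Npc2 had windows without CACGTG, which says only that these letters are not in them. Of the MiT factors, Tfe3 had 0, 3.56, 2.02 and 1.27 FPKM in control and Tfeb at most 0.62 FPKM, neither had a read in exercise, Mitf and Tfec had no read in any library, and none of these 4 factors passed the filter.

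Other genes of the lysosomal pathway were read from 6 lists. Of 132 genes that were measured, 87 had reads, 47 were tested, 3 were higher and 15 were lower, against 8.78% higher and 26.8% lower among all genes tested, with a median log2 fold change of -1.46 beside -1.42 over all genes tested. Among 11 further lysosomal genes tested, 2 were higher (8.78% of all genes) and 5 were lower (26.8% of all genes). Aga, for aspartylglucosaminidase, an amidase of glycoprotein breakdown, had 0, 0, 0.99 and 1.08 FPKM in control and 22.7, 23.5, 9.33 and 1.5 FPKM in exercise (log2 fold change 2.95, SE 0.85, adjusted p = 0.0296 by limma). It was highest in exercise 1 and 2 and lowest, among exercise libraries, in exercise 4, as were Ctsb and Ctso. The dependence between these libraries leaves few other orders. Among the 5 falls were those of Ggh, Cd164 and Slc38a9. Ggh, a hydrolase of folate polyglutamates, had 0, 40.7, 29.3 and 21.6 FPKM in control and no read in exercise (-3.70, SE 1.11, adjusted p = 0.0335 by limma), so that control 1 lay with the exercise libraries, as it did for Kdr.

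The vacuolar ATPase pumps protons into lysosomes, and 3 of its 11 tested subunits were lower and none was higher, a share of lower genes close to the 26.8% of all genes tested. Atp6v0b, of the membrane sector, had 2.34, 25.8, 24.6 and 12.6 FPKM in control, Atp6v1e1, of the stalk, had 187, 11.3, 5.49 and 40.7 FPKM, and Atp6v1h had 0, 15.3, 9.41 and 7.78 FPKM. None of the 3 had a read in exercise, and their log2 fold changes were -3.73, -4.81 and -2.64. Among 8 tested genes of lysosomal enzyme sorting, Vps29, a subunit of the retromer that returns sorting receptors from endosomes, was higher, with 0, 0.16, 2.38 and 0.90 FPKM in control and 76.4, 68.3, 43.6 and 10.2 FPKM in exercise (4.61, SE 0.82, adjusted p = 0.00440 by limma). Among 4 tested inhibitors of cathepsins, Cst3, for cystatin C, a secreted inhibitor of cysteine cathepsins, was lower. It had 2357, 1401, 1657 and 1586 FPKM in control and 395, 436, 219 and 134 FPKM in exercise (-2.68, SE 0.56, adjusted p = 0.00877 by limma), and no exercise library reached the lowest control library.

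Autophagy genes were lower in 6 of 13 cases tested and higher in none, against 26.8% lower and 8.78% higher among all genes tested. Map1lc3a, which encodes a protein coupled to the autophagosome membrane, had 3.32, 9.68, 34.5 and 18.1 FPKM in control and no read in exercise (-3.73, SE 0.74, adjusted p = 0.00688 by limma). Sqstm1, for the cargo receptor p62, had 91.3, 419, 362 and 243 FPKM in control and 34.2, 32.3, 25.8 and 32.1 FPKM in exercise (-2.92, SE 0.68, adjusted p = 0.0133 by limma). All exercise libraries lay below all control libraries. Gabarapl2, a relative of Map1lc3a, and Ulk1, a kinase that starts autophagy, had no read in exercise, and their log2 fold changes were -3.04 and -2.46. Over the fits without 1 library, 6 to 22 of the pathway genes were called in place of 18, with 6 without control 4 or exercise 3 and 22 without control 1.

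**Figure D5:**
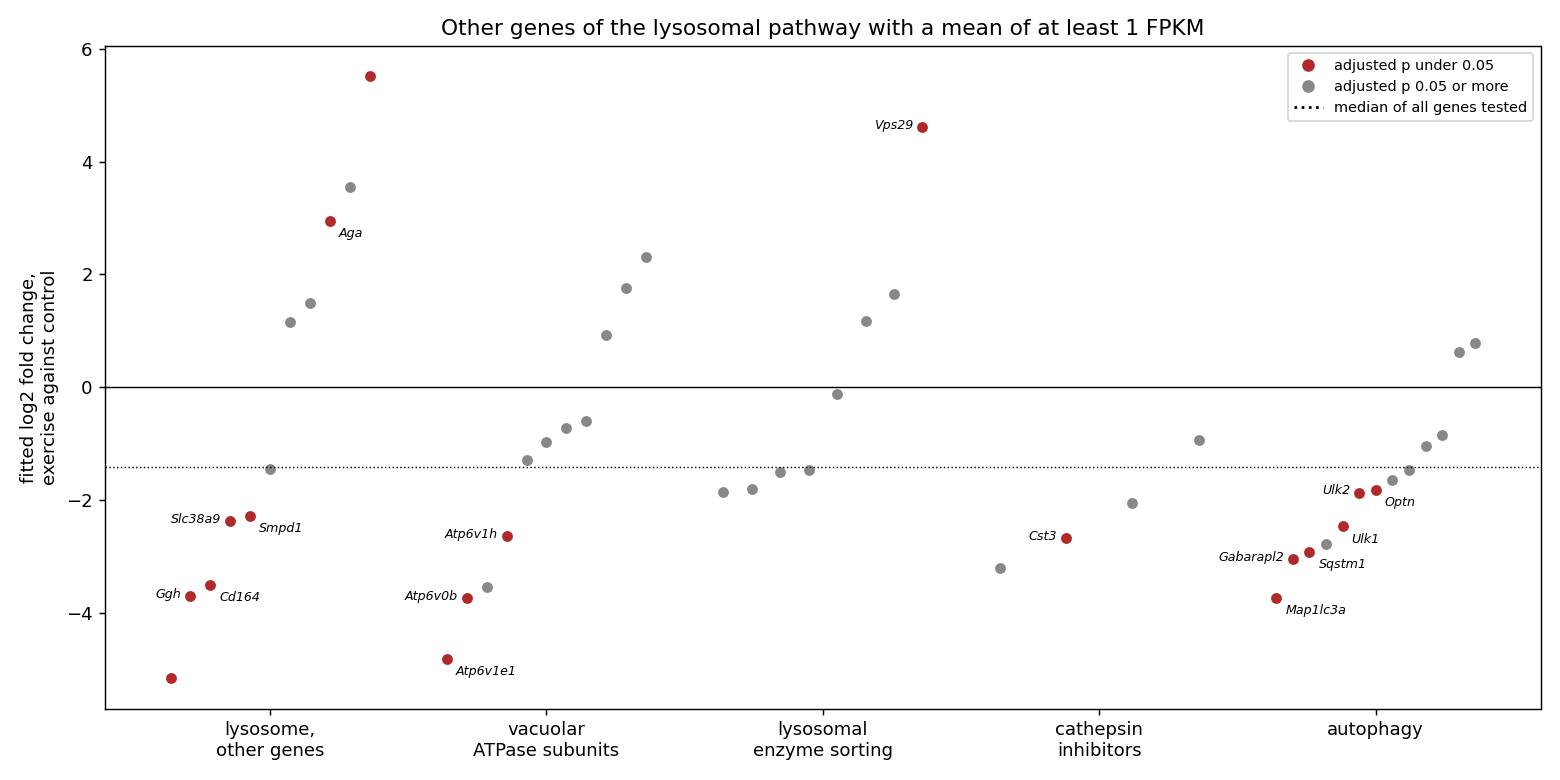
Fitted log2 fold change, exercise against control, of the 47 pathway genes tested, by list, with genes of an adjusted p under 0.05 in red and most of them labelled, and the median of all genes tested (-1.42) as a dotted line. Aga and Vps29 are among the 3 red genes above 0, and 15 red genes lie below it.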

How the data were processed

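Libraries of SCs from 4 control and 4 exercise samples were grouped by the sample labels. Per the labels, reads were processed on mm10 (GRCm38) with Bowtie 0.12.9, Cufflinks 2.1.1 and HTSeq, and the study's methods name DESeq2 for its own tests. The authors deposited 1 table of FPKM values. Multiplied by gene length, 100% of values were whole multiples of 1 step per library within a tolerance of 0.001, so reads were recovered. The step times the median-of-ratios size factor was 0.580 in every library, so the values are scaled by size factors. Depth was 1011737 to 3013354 reads per library, a count of 0 was taken to allow 3 reads, and floors cover counting error only, because reads from amplified cDNA do not stand for separate molecules.

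Values of a repeated symbol were added up (101 fewer genes). A gene entered the test if its mean reached 1 FPKM, and limma 3.58.1 (lmFit, eBayes with trend) in R 4.3.3 was run two-sided on log2(FPKM + 1), and fold changes on this scale understate the change of low genes. The script was tested on simulated data before use. Tables were made in Python 3.11.15 with pandas 2.3.3 and figures with matplotlib 3.10.9. Alternatives were a pseudocount of 0.1, other filters, quantile normalization, a constant sum, no trend, array quality weights, voom on recovered reads, a replicate block, the highest of the values that share a symbol, leaving out each library, exercise 1 and 2 averaged, and the last with control 4 and exercise 3 left out. The members and lists were chosen with earlier results of these data known. All 35 members are named, those called, the 3 chosen for their rise and the 12 highest by mean FPKM with their values, and of each pathway list at most 4 genes per direction. Some genes that this rule takes are counted but not reported by name here. Positions are those of the table, and 33 of 35 are the same in GENCODE M21. Promoter sequences are from RefSeq.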

Additional observations from a re-analysis of the deposited data

Results flagged for a closer look

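In 13 of the 48 groups of 4 libraries with any spread, 1 library stood apart from the other 3 by Dixon's test at the 95% level. Chance gives about 1 in 20 groups for continuous values, but in 9 of the 13 the other 3 libraries were tied at 0, where any read meets the criterion, so that this rate does not apply to them. In 10 of the 13 the library that stood apart had 3 or fewer reads of the gene.

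In exercise 4, Ctsz and Hexa were at 0 FPKM while the other exercise libraries had 53.2 to 82.6 and 11.3 to 18.5 FPKM, and Gaa was at 3.63 FPKM (5 reads) above the other 3. Single reads set exercise 3 apart for Ctsh at 0.20 FPKM and Ctsa at 0.19 FPKM, exercise 1 for Ctsk at 0.40 FPKM and exercise 2 for Gusb at 0.14 FPKM. In exercise 2, Laptm4a had 2 reads, 0.71 FPKM, and no read in the other exercise libraries.

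In control, Ctsk was at 0 FPKM in control 1, and Ctss at 0.18 FPKM and Glb1 at 0.083 FPKM in control 4 were 1 read each. Naglu stood apart in control 2 at 0.61 FPKM (5 reads). Dirc2 was present in control 1 at 0.73 FPKM (9 reads) and had no read in the other 3 control libraries.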

How the results depend on the processing

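Over 20 alternative settings, 336 log2 fold changes of tested lysosomal genes were recomputed, of which 261 kept their direction and side of the threshold, 58 lost the call, 9 gained one in the same direction and 8 turned their direction. Among these 8, Ctsz with array quality weights also gained a call. Of 60 recomputed counts of genes called, 27 stayed within 1.5 times the reported count. Against 2 lysosomal genes called higher, 7 called lower and 18 pathway genes called, array quality weights gave 5 higher, 10 lower and 41 pathway genes, a constant sum gave 1 higher, quantile normalization 3 lower and 11 pathway genes, no filter 4 lower and 7 pathway genes, and at least 1 FPKM in 4 libraries 11 pathway genes. With exercise 1 and 2 averaged the counts were 1, 3 and 7, and after control 4 and exercise 3 were dropped too they were 0, 0 and 0. With the replicate block they were 2, 3 and 11, and the lost calls were Ctsa, Ctsh, Laptm4a and Npc2. The counts over all genes moved as well, from 380 higher and 1161 lower. They were 264 and 1561 with a constant sum, 566 and 375 with quantile normalization, and 178 and 418 with exercise 1 and 2 averaged. For array quality weights, other filters, the replicate block and the fits without 1 library they are not given here, so those lysosomal counts lack that comparison. The library numbers were not taken to pair the libraries, since correlations were -0.02 to 0.04. For 3 of 4 numbers the best partner was their own, but correlations this small do not decide whether libraries were paired. Without 1 library, 1 to 3 were higher, 2 to 8 lower and 6 to 22 of the pathway called.

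Under quantile normalization the log2 fold changes turned to 0.15 for Ctsz, 0.10 for Ctsd, 0.52 for Gaa and 0.40 for Lamp2. Ctsz turned to 1.62 with array quality weights, where it was called higher, and ranged from -1.32 to 0.81 without 1 library. Hexa turned to -0.14 with a pseudocount of 0.1 and to -0.46 with exercise 1 and 2 averaged and control 4 and exercise 3 left out. The 2 genes called higher by voom were Ctso and Ctsf, in place of Ctso and Ctsb. The cause was not tested. Where exercise had no read, the size of a fall rests on the value of 3 reads, which in FPKM is largest in exercise 4, the library with the smallest size factor (0.167).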
